A study of Homo sapiens with 6 samples.

Results

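The amino acid response and tRNA synthetase genes are 39 genes defined by a fixed list of names, with no threshold on their values, out of 58735 genes listed in each library. The list was chosen with earlier results of these data known. The 39 genes comprise 5 transcription factors of the ATF4 axis, 6 stress effectors, 7 genes of amino acid synthesis, 3 genes of mitochondrial one-carbon metabolism, 6 amino acid transporters and 12 cytosolic tRNA synthetases. All 39 were found, the 12 synthetases under older symbols that lack the final 1. The cells were SK-N-AS, an established human neuroblastoma line, and their RNA was sequenced (RNA-seq) 72 h after transfection per the labels, although the paper names an earlier time point. One group of 3 libraries received a negative control siRNA (NC) and the other group of 3 an siRNA against Prp19 (siPrp19), a pre-mRNA splicing factor encoded by PRPF19. All cells therefore went through the same transfection. The paper took the first of its Prp19 siRNAs, picked by knockdown, into its later assays, and the labels do not name the siRNA.

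The libraries are called here by the names of their value columns, NCa, NCb and NCc and siPrp19a, siPrp19b and siPrp19c, and each name is the description of 1 sample. The deposited records name another sample than the column for 4 of the 6 libraries. For NCc and siPrp19a this is another sample of the same group, whereas NCb is recorded under a siPrp19 sample and siPrp19b under an NC sample. Results are given by column name, then for the 4 libraries in which both sources give the same group, and then by record. These 3 comparisons share libraries and are not independent of each other. PRPF19 measured 83.0, 83.1 and 93.0 FPKM (fragments per kilobase of exon, scaled to the size of the library) in NCa, NCb and NCc and 19.6, 19.1 and 18.5 FPKM in siPrp19a, siPrp19b and siPrp19c. The level of the targeted gene thus followed the column names in all 6 libraries, although it was not used to group them. It fell by 2.12 on the log2 scale (SE 0.07, n = 3 per group, adjusted p = 0.000215 with limma), and the 4 libraries gave a log2 difference of -2.15 (adjusted p = 0.0266).

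Between 14887132 and 19977811 reads per library were recovered from the FPKM values. NCa and NCb differed from each other by a chi-square of 1.72 per degree of freedom over genes, and siPrp19b and siPrp19c by 2.59, whereas the other 13 pairs lay between 18.1 and 46.7. Both close pairs still differed by more than sampling noise, which does not show that their libraries are independent replicates. They were kept as separate libraries, so the 3 libraries of a group were not equally distinct from each other. Mitochondrial genes took 8.29% of the reads in siPrp19a and 5.15% to 5.49% in the other 5 libraries. The neuroblastoma lineage genes HAND2 (117 to 170 FPKM) and GATA3 (22.8 to 30.7 FPKM) were expressed in every library, whereas TH, the first enzyme of catecholamine synthesis, was at 0.312 to 0.662 FPKM. The summed level of the 12 lineage genes was 350 to 376 FPKM in NC and 293 to 303 FPKM in siPrp19. Of the 8 mesenchymal markers, which sum to 619 to 630 FPKM in NC and 527 to 590 FPKM in siPrp19, COL1A1 and VIM were the most abundant. The 7 epithelial markers summed to 46.7 to 63.1 FPKM in NC and 47.4 to 51.3 FPKM in siPrp19, mostly through KRT18, with ESRP1 listed at 0 and CDH1 at most 0.0205 FPKM. The 6 blood markers summed to 25.5 to 31.0 FPKM in NC and 17.2 to 20.9 FPKM in siPrp19, nearly all of it PTPRC, with CD3E and HBB listed at 0. The part of these marker lists in the results below was not tested. In bulk RNA, fewer cells of a type and less RNA per cell cannot be told apart.

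When cells run short of an amino acid, uncharged tRNA activates the kinase GCN2, which phosphorylates the translation factor eIF2. General translation then declines while the mRNA of ATF4 is translated more, and ATF4 with its C/EBP partners raises genes of amino acid synthesis, uptake and tRNA charging through a C/EBP-ATF response element in their promoters. Unfolded protein, heme shortage and viral RNA reach the same step through other eIF2 kinases. Because ATF4 is controlled mainly in translation, its mRNA level is only part of its regulation, and the RNA of its targets is a common readout. In neuroblastoma, serine synthesis and amino acid import are known mainly as growth requirements of MYCN-driven tumours.

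The element has the core TGATGNAA, in which N is any base. Both strands of the RefSeq promoters (GRCh38.p14, 250 bases before to 50 bases after each start) were searched for it. The core was present in 3.62% of all 35116 promoters and in 12 of the 51 promoters of the genes studied here (23.5%). By gene, it was present in 12 of the 31 that matched the promoter table (38.7%) against 4.46% of all symbols, and in 7 of the 10 synthetases that matched. The genes were listed for their place in the ATF4 response, so these shares are no test. The 31 genes also held 51 promoters, against 35116 for 27305 symbols, and more promoters per gene give more places for a match. The windows of 6 genes are shown because ASNS is the classic target of the element, CHAC1 and SLC1A4 had the highest log2 differences among the genes with a core, and MARS1, AARS1 and NARS1 hold the highest, a middle and the lowest value among the synthetases with a core. They were chosen after the values were seen. Each window holds the core in capitals with 10 bases on either side, read 5′ to 3′ on the strand of the gene, where a core on the opposite strand reads TTNCATCA.
ASNS, chr7:97872459-97872486, minus strand: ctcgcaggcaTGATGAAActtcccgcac
CHAC1, chr15:40953252-40953279, plus strand: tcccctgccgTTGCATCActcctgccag
SLC1A4, chr2:64989382-64989409, plus strand: cggctcccgtTTGCATCAtctccagccg
MARS1, chr12:57488054-57488081, plus strand: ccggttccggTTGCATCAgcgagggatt
AARS1, chr16:70289676-70289703, minus strand: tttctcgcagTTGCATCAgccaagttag
NARS1, chr18:57621805-57621832, minus strand: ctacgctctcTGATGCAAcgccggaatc
The remaining promoters with a core were those of TARS1, GARS1, IARS1, CARS1, SLC1A5 and SLC3A2. A match of letters is a description and not a binding site.

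The genes were compared between NC and siPrp19 to see whether the amino acid response moved after knockdown of Prp19. Of the 39 genes, 35 had a mean of at least 1 FPKM and were tested, and 4 changed: SESN2 and STC2 rose, and PSAT1 and SLC38A2 fell (limma on log2(FPKM + 1), adjusted p under 0.05, 3 libraries against 3). This is 11.4% of the tested genes, against 7.94% of all 13718 genes tested, of which 1089 were called. In each direction, 2 of the 35 genes were called, whereas 2.57% of all genes tested were called higher and 5.37% lower. At an unadjusted p under 0.05, 14 of the 35 passed, against 23.6% of all genes. The log2 difference was above 0 for 16 genes and below 0 for 19, with a median of -0.05 against -0.02 over all genes tested, and the median of the 35 became 0.07 after quantile normalization. The values of NC and siPrp19 did not overlap in 16 of the 35 genes, or 45.7% against 31.3% of all genes. Of these, 8 were higher and 8 lower in siPrp19, against 13.2% and 18.1% of all genes. A fold change on the log2(FPKM + 1) scale understates the change of weakly expressed genes. The calls count the libraries of each close pair separately. With each close pair averaged, 0 of the set and 0.0146% of all genes were called (limma, 2 values against 2).

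**Figure D1:**
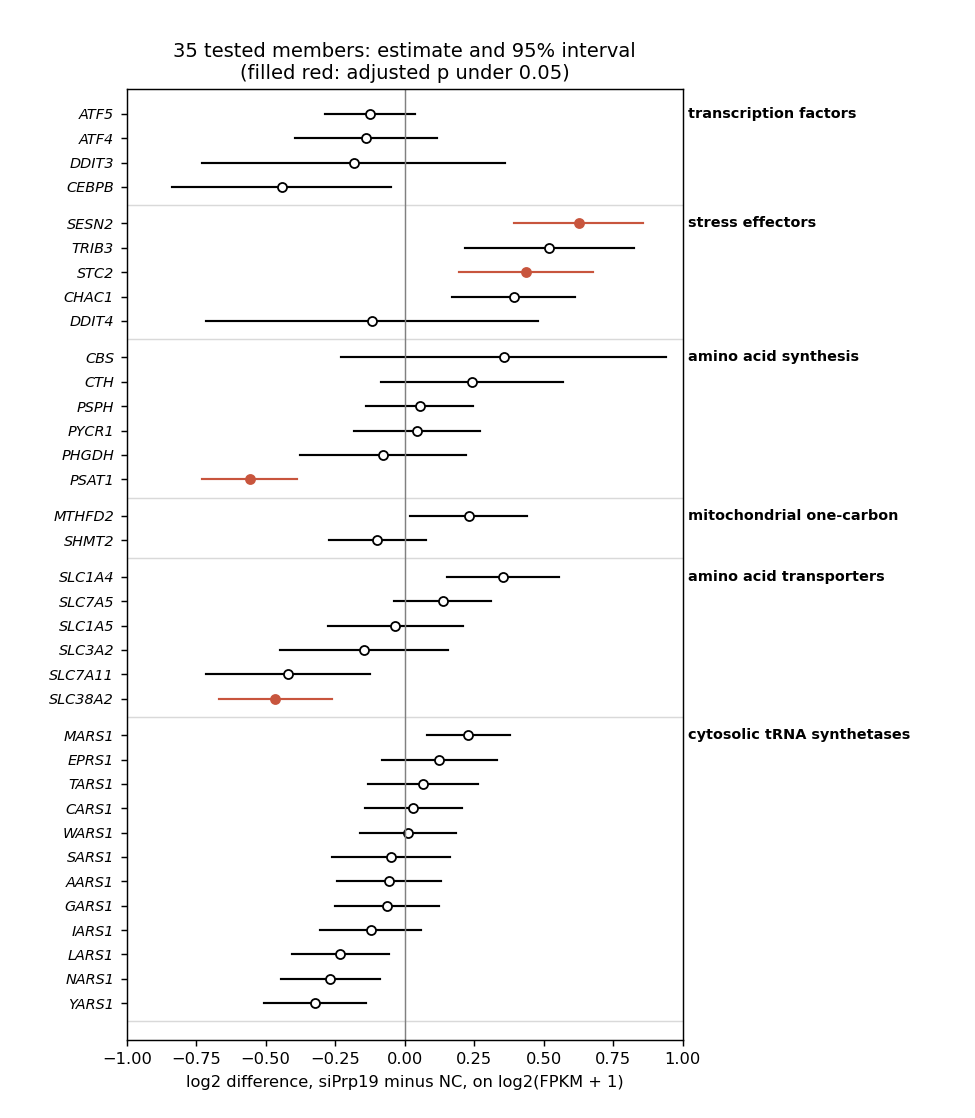
Estimate and 95% interval (horizontal line) of the log2 difference, siPrp19 minus NC, on the log2(FPKM + 1) scale for the 35 tested genes, grouped by role. Filled red points mark the 4 genes with an adjusted p under 0.05, SESN2 and STC2 to the right of 0 and PSAT1 and SLC38A2 to the left.

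None of the transcription factors passed the test with limma, and all 4 that were tested had log2 differences below 0. At an unadjusted p under 0.05, 1 of the 4 passed against 23.6% of all genes, and with voom on the recovered reads 0 against 10.2%. The median of the 4 was -0.16, and -0.12 after quantile normalization. ATF4 (ENSG00000128272, chr22:39519695-39522685), the activator at the centre of the response, measured 75.7, 72.2 and 92.3 FPKM in NCa, NCb and NCc and 68.2, 72.6 and 76.0 FPKM in siPrp19a, siPrp19b and siPrp19c. The groups overlapped, and NCc was the highest library. Its log2 difference was -0.14 (95% interval -0.40 to 0.12, adjusted p = 0.492 with limma) and its sign turned under quantile normalization, with 0.0016. The annotation holds 4 pseudogenes of ATF4 by name. DDIT3 (ENSG00000175197, chr12:57516588-57521737), which encodes the stress factor CHOP, measured 12.0, 11.6 and 16.1 FPKM in the NC libraries a to c and 8.23, 11.0 and 16.3 FPKM in the siPrp19 libraries a to c. The lowest and the highest of its 6 values were both siPrp19 libraries. Its log2 difference was -0.18 (95% interval -0.73 to 0.36), and without siPrp19a it was 0.031. DDIT3 shares 39.6% of its exon length with other genes, among them MARS1 on the opposite strand, and the library kit does not mark strand, so reads of overlapping genes cannot be told apart.

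CEBPB, a C/EBP factor that pairs with ATF4, was the most abundant of the factors, with 150 ± 20.9 FPKM in NC and 111 ± 21.1 FPKM in siPrp19 (mean ± SD, n = 3). Its groups did not overlap, and its log2 difference of -0.44 missed the threshold (adjusted p = 0.167 with limma). The lowest value, 86.7 FPKM, was in siPrp19a. ATF5, a relative of ATF4 that is also controlled in translation, measured 3.87 ± 0.183 FPKM in NC and 3.47 ± 0.0546 FPKM in siPrp19, with a log2 difference of -0.12 (adjusted p = 0.334 with limma). Other genes share 23.7% of the exon length of ATF5. NUPR1, a stress-induced chromatin protein, was too low to test, with 8 to 25 reads per library (0.0893 to 0.215 FPKM).

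The stress effectors held both genes that rose, against 2.57% of all genes called higher. In 4 of the 5 tested effectors every siPrp19 library was above every NC library, against 13.2% of all genes. The median log2 difference of the 5 was 0.44, and 0.53 after quantile normalization. The genes and lists were chosen with earlier results of these data known, so these shares are a description and not a test. SESN2 (Sestrin 2, ENSG00000130766, chr1:28259527-28282491), a leucine sensor that restrains mTORC1 when amino acids are short, measured 3.95, 5.13 and 4.88 FPKM in NCa, NCb and NCc and 7.19, 8.02 and 7.90 FPKM in siPrp19a, siPrp19b and siPrp19c. All siPrp19 libraries were above all NC libraries. The mean rose from 4.65 ± 0.620 to 7.70 ± 0.451 FPKM (SD, n = 3), an increase of 65.5%, with a log2 difference of 0.63 (SE 0.10, adjusted p = 0.0141 with limma). The call was lost without siPrp19b (adjusted p = 0.0726) and without siPrp19c (adjusted p = 0.0683). The difference stayed between 0.53 and 0.74 in every alternative by column name, and was 0.26 when libraries were grouped by record.

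STC2 (Stanniocalcin 2, ENSG00000113739, chr5:173314713-173329503), a secreted glycoprotein induced by endoplasmic reticulum stress, measured 27.3, 24.9 and 27.7 FPKM in NCa, NCb and NCc and 32.0, 36.3 and 41.1 FPKM in siPrp19a, siPrp19b and siPrp19c. The groups did not overlap, and the siPrp19 libraries were spread more widely than the NC libraries. The mean rose from 26.6 ± 1.52 to 36.5 ± 4.56 FPKM (SD, n = 3), by 37.2%, with a log2 difference of 0.44 (SE 0.10, adjusted p = 0.0488 with limma). The call sat at the threshold and was lost without NCa (adjusted p = 0.137), NCb (0.163), NCc (0.0609), siPrp19b (0.159) or siPrp19c (0.148), and with no filter on low values (0.122), an equal FPKM sum in each library (0.0767), no mean-variance trend (0.0599) or the replicate block (0.0536).

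TRIB3, a pseudokinase that feeds back on ATF4, had a mean of 13.8 ± 0.981 FPKM in NC and 20.4 ± 3.65 FPKM in siPrp19, a log2 difference of 0.52 (95% interval 0.22 to 0.82, adjusted p = 0.0552 with limma). CHAC1, an enzyme that degrades glutathione and a direct ATF4 target, measured 2.64 ± 0.140 FPKM in NC and 3.79 ± 0.451 FPKM in siPrp19, a log2 difference of 0.39 (95% interval 0.17 to 0.61, adjusted p = 0.0506). Both were higher in 3 of 3 siPrp19 libraries than in any NC library and lay just outside the threshold. TRIB3 passed with voom on the recovered reads (adjusted p = 0.0256), after quantile normalization (0.0329) and without siPrp19a (0.0251), and CHAC1 passed with a pseudocount of 0.1 (0.0472).

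DDIT4, an inhibitor of mTORC1, was the only tested effector whose groups overlapped. Its level was 57.7 to 77.1 FPKM in NC, against 39.3 FPKM in siPrp19a and 71.8 and 76.3 FPKM in siPrp19b and siPrp19c. The log2 difference of -0.12 (95% interval -0.72 to 0.48) turned to 0.18 without siPrp19a, to 0.0027 without NCc and to 0.03 after quantile normalization, and 41.2% of the exon length of DDIT4 is shared with other genes. VLDLR, a lipoprotein receptor induced by ATF4, stayed under the level needed for the test, with 29 to 60 reads per library.

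**Figure D2:**
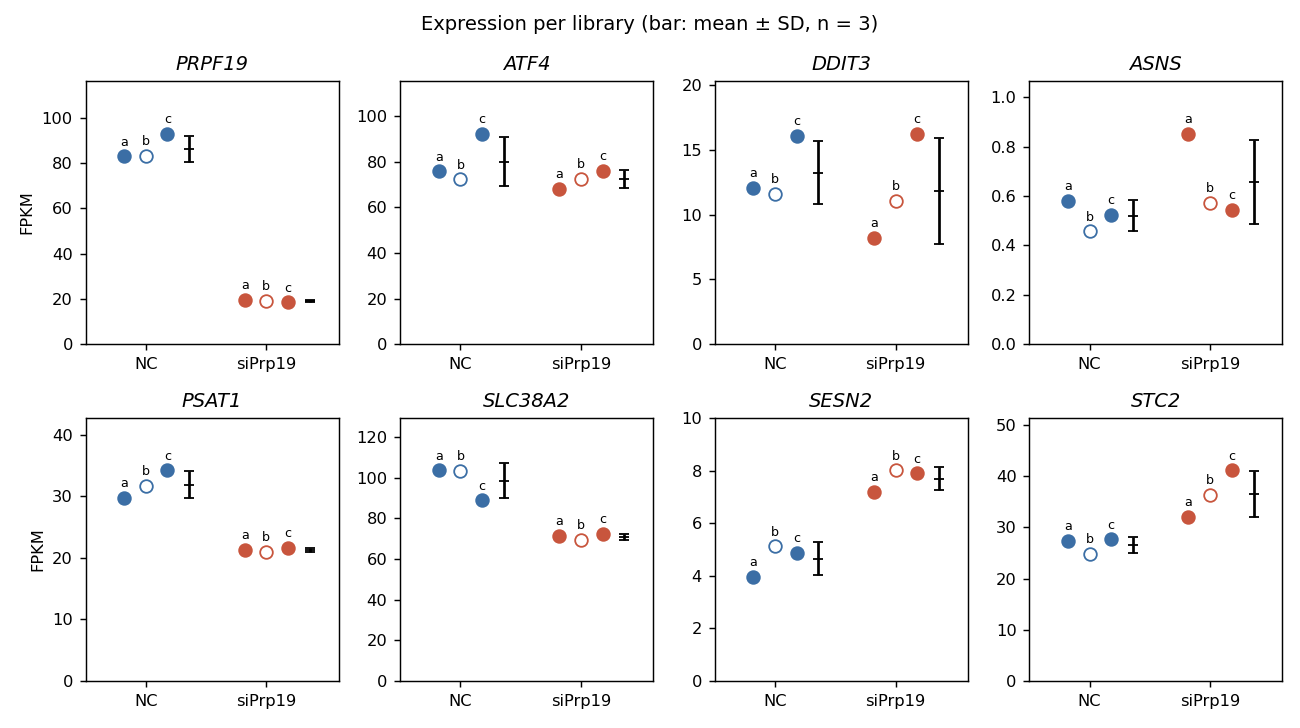
FPKM (vertical axes, each from 0) of PRPF19 and 7 genes of the set in the 6 libraries, with blue points for NC and red points for siPrp19, letters a to c naming the library, and black bars for mean ± SD (n = 3). Open points are NCb and siPrp19b, whose file records give the opposite group, and in PRPF19, PSAT1, SLC38A2, SESN2 and STC2 they sit with the group of their column name.

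Amino acid synthesis held 1 gene that fell, PSAT1, against 5.37% of all genes tested, and 5 tested genes that did not pass. The median log2 difference of the 6 was 0.05. PSAT1 (ENSG00000135069, chr9:78297143-78330093), the aminotransferase of the second step of serine synthesis, measured 29.8, 31.8 and 34.2 FPKM in NCa, NCb and NCc and 21.4, 21.0 and 21.7 FPKM in siPrp19a, siPrp19b and siPrp19c. The siPrp19 libraries lay close together and all below NC. The mean fell from 31.9 ± 2.25 to 21.3 ± 0.345 FPKM (SD, n = 3), by 33.2%, with a log2 difference of -0.56 (SE 0.07, 95% interval -0.73 to -0.39, adjusted p = 0.00845 with limma), which had the smallest p among the genes of the set. The call was lost without siPrp19b (adjusted p = 0.0507). The annotation holds 4 pseudogenes of PSAT1 by name, with which reads could be shared.

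The enzymes before and after PSAT1 in serine synthesis did not pass the test. PHGDH, the first enzyme, was weakly expressed, at 1.54 ± 0.239 FPKM in NC and 1.40 ± 0.254 FPKM in siPrp19 (log2 difference -0.08, 95% interval -0.38 to 0.22), and without siPrp19a the sign turned, with 0.013. PSPH, the last enzyme, measured 9.65 ± 0.720 and 10.1 ± 0.722 FPKM (log2 difference 0.05, 95% interval -0.14 to 0.25). Both had adjusted p of 0.741 or more with limma, and the 3 genes of this short pathway therefore held 1 call.

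ASNS (ENSG00000070669, chr7:97852118-97872542), asparagine synthetase and the reference target of the amino acid response, was barely expressed in these cells. It measured 0.581, 0.457 and 0.522 FPKM in NCa, NCb and NCc and 0.853, 0.571 and 0.545 FPKM in siPrp19a, siPrp19b and siPrp19c, from 30 to 60 reads per library. The groups overlapped, with siPrp19a alone above the rest, and the gene was below the level needed for the test. Of its exon length, 44.6% is shared with another gene, and 4 pseudogenes carry its name.

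PYCR1, which makes proline, measured 46.0 ± 4.56 FPKM in NC and 47.4 ± 3.44 FPKM in siPrp19, with a log2 difference of 0.04 (95% interval -0.18 to 0.27). Other genes share 29.7% of its exon length. CTH, which makes cysteine from cystathionine, measured 1.98 ± 0.402 and 2.53 ± 0.416 FPKM (log2 difference 0.24, adjusted p = 0.344 with limma). CBS, the enzyme before CTH, measured 8.07, 7.83 and 3.86 FPKM in siPrp19a, siPrp19b and siPrp19c, against 4.21 to 5.72 FPKM in NC. The siPrp19 libraries thus lay on both sides of NC, although siPrp19b and siPrp19c were a close pair over all genes, and the log2 difference of 0.36 had a 95% interval of -0.23 to 0.94. CBS has a near-identical annotated copy, and how reads were divided between them is not known here.

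In mitochondrial one-carbon metabolism, which turns serine into formate for nucleotide synthesis, no gene passed the test with limma. At an unadjusted p under 0.05, 1 of 2 passed against 23.6% of all genes, and with voom 0 against 10.2%. MTHFD2, the dehydrogenase of the pathway, measured 15.2 ± 0.744 FPKM in NC and 18.1 ± 1.89 FPKM in siPrp19 without overlap, a log2 difference of 0.23 (95% interval 0.02 to 0.44, adjusted p = 0.174 with limma). Of the exon length of MTHFD2, 33.2% is shared with other genes, and 7 pseudogenes carry its name. SHMT2, which takes the carbon from serine, measured 32.6 ± 2.38 and 30.4 ± 0.641 FPKM, with a log2 difference of -0.10 that was 0.02 after quantile normalization. ALDH1L2, which oxidises formyl-folate, was not tested and had 10 to 42 reads per library, at 0.163, 0.0797 and 0.0957 FPKM in NCa, NCb and NCc and 0.313, 0.214 and 0.218 FPKM in siPrp19a, siPrp19b and siPrp19c. Its groups did not overlap.

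Of the 6 amino acid transporters, 1 fell, against 5.37% of all genes tested. The group was split, with 2 transporters above and 2 below NC without overlap, against 13.2% and 18.1% of all genes. Its median log2 difference was -0.09, and 0.03 after quantile normalization. SLC38A2 (SNAT2, ENSG00000134294, chr12:46358189-46372867), which imports neutral amino acids with sodium and is itself induced by amino acid shortage, was the most abundant of the 6, with 104, 103 and 88.9 FPKM in NCa, NCb and NCc and 71.3, 69.4 and 72.2 FPKM in siPrp19a, siPrp19b and siPrp19c. All siPrp19 libraries were below all NC libraries, and NCc was the nearest to them. The mean fell from 98.6 ± 8.44 to 71.0 ± 1.46 FPKM (SD, n = 3), by 28.0%, with a log2 difference of -0.47 (SE 0.09, adjusted p = 0.0223 with limma). The call was lost after quantile normalization (log2 difference -0.34, adjusted p = 0.155) and without NCa (adjusted p = 0.108), NCb (0.102), siPrp19b (0.106) or siPrp19c (0.0933), and with no filter (0.0595) or an equal FPKM sum (0.0899).

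SLC7A11, the cystine importer xCT, measured 8.05 ± 1.29 FPKM in NC and 5.75 ± 0.653 FPKM in siPrp19, a log2 difference of -0.42 (95% interval -0.71 to -0.12, adjusted p = 0.0940 with limma), and passed without NCc (adjusted p = 0.0270). SLC1A4, which carries serine, alanine and cysteine, pointed the other way, with 2.36 ± 0.236 and 3.29 ± 0.127 FPKM and a log2 difference of 0.35 (95% interval 0.15 to 0.56, adjusted p = 0.0525). It passed with voom (adjusted p = 0.0212), after quantile normalization (0.0465) and with no mean-variance trend (0.0479). The 2 chains of the leucine transporter differed from each other in sign, at 71.4 ± 3.58 and 78.5 ± 2.79 FPKM for the light chain SLC7A5 (log2 difference 0.14, adjusted p = 0.322) and 40.9 ± 4.08 and 37.0 ± 5.54 FPKM for the heavy chain SLC3A2 (log2 difference -0.15, adjusted p = 0.543). SLC3A2 was lowest in siPrp19a, at 30.7 FPKM. SLC1A5, the glutamine carrier ASCT2, measured 76.0 ± 7.91 and 74.1 ± 5.93 FPKM, with a log2 difference of -0.03 (95% interval -0.28 to 0.21) and 0.11 after quantile normalization. Other genes share 23.8% of its exon length.

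None of the 12 cytosolic tRNA synthetases, the enzymes that load amino acids onto tRNA, passed the test with limma. At an unadjusted p under 0.05, 4 of the 12 passed against 23.6% of all genes, and with voom 1 against 10.2%. The log2 differences of the synthetases lay between -0.32 and 0.23, 5 above and 7 below 0, with a median of -0.05 that became 0.07 after quantile normalization. All 12 were well expressed, from 8.12 ± 0.660 FPKM for CARS1 to 55.2 ± 1.95 FPKM for NARS1 in NC. YARS1, which charges tyrosine, had the lowest log2 difference, with 20.3 ± 1.72 FPKM in NC and 16.0 ± 0.524 FPKM in siPrp19 (-0.32, 95% interval -0.51 to -0.14, adjusted p = 0.0533), and it passed with voom (adjusted p = 0.0368) and without NCc (0.0482). NARS1, which charges asparagine, measured 55.2 ± 1.95 and 45.7 ± 2.87 FPKM (log2 difference -0.27, adjusted p = 0.0804), and LARS1, which charges leucine, measured 30.2 ± 0.293 and 25.7 ± 1.98 FPKM (log2 difference -0.23, adjusted p = 0.113). These 3 were below NC without overlap and 1 synthetase was above, together 33.3% of the 12 against 31.3% of all genes.

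MARS1, the methionine enzyme, was the only synthetase above NC without overlap, at 28.9 ± 0.781 FPKM in NC and 34.1 ± 1.06 FPKM in siPrp19 (log2 difference 0.23, 95% interval 0.08 to 0.38, adjusted p = 0.0767 with limma). It passed after quantile normalization (adjusted p = 0.0289) and without NCc (0.0473), and 13.3% of its exon length is shared with other genes. EPRS1, the fused glutamate and proline enzyme, measured 44.6 ± 1.80 and 48.8 ± 4.72 FPKM (log2 difference 0.12), and IARS1, the isoleucine enzyme, 35.7 ± 1.38 and 32.8 ± 2.37 FPKM (log2 difference -0.12). For AARS1, CARS1, GARS1, SARS1, TARS1 and WARS1, which charge alanine, cysteine, glycine, serine, threonine and tryptophan, the log2 differences lay between -0.06 and 0.06 with adjusted p of 0.692 or more. The 95% intervals of these 6 genes stayed within -0.26 to 0.26, which leaves room for changes of that size. The sign of AARS1 (0.07), GARS1 (0.05) and SARS1 (0.07) turned after quantile normalization.

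**Figure D3:**
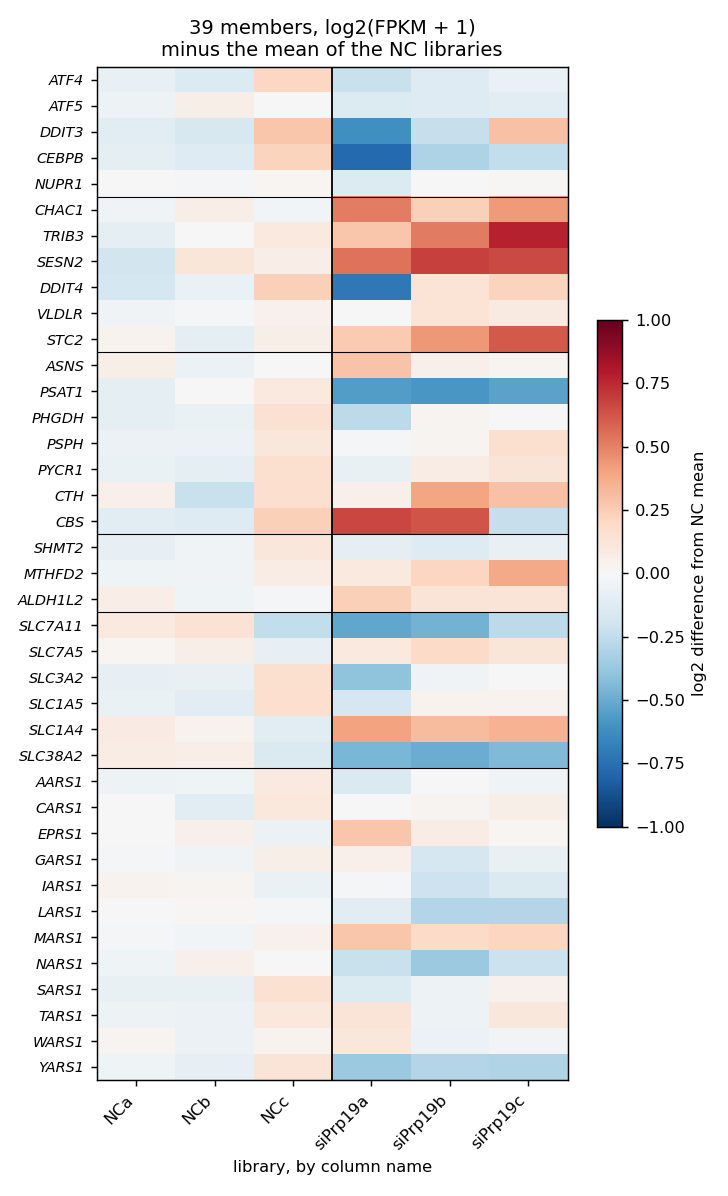
Each row is 1 of the 39 genes and each column 1 library by column name, coloured by log2(FPKM + 1) minus the mean of the 3 NC libraries, with horizontal lines between the groups of genes. SESN2, TRIB3, CHAC1 and SLC1A4 are red in all 3 siPrp19 libraries, and PSAT1, SLC38A2 and YARS1 are blue. In DDIT4 siPrp19a stands apart from siPrp19b and siPrp19c, and in DDIT3 it is the lowest of the 3.

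At the share of 7.94% called among all genes, groups this small hold few calls, and no difference by the core was tested. Of the 11 tested genes with a core, 0 were called (limma), 5 had a log2 difference above 0 and 6 below, and the median was -0.03. Of the 18 tested genes in the promoter table without a core in the searched window, 4 were called and 9 were above 0, with a median of -0.02. Elements outside that window, such as in introns or further upstream, were not searched for. CHAC1, with 0.39, and NARS1, with -0.27, had the highest and the lowest log2 differences among the genes with a core, and their windows are those printed above.

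The individual libraries were not evenly placed over the set. NCc was the highest library for 14 of the 35 tested genes (40% against 28.6% of all genes tested), and siPrp19a was the lowest for 12 (34.3% against 24.7%). Without NCc, 6 of the genes were called, namely PSAT1, SESN2, SLC38A2, YARS1, SLC7A11 and MARS1, against 9.87% of all genes. Without siPrp19a, the library with the raised mitochondrial share, PSAT1, SESN2, SLC38A2, STC2, TRIB3 and LARS1 were called, against 7.53% of all genes. Without siPrp19b 0 were called, against 1.97% of all genes (limma, 12 of the set and 2428 of all 13718 genes at an unadjusted p under 0.05). Without siPrp19c only PSAT1 was called, against 1.84%.

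The calls rest on counting NCa with NCb, and siPrp19b with siPrp19c, as separate libraries. With each close pair averaged, which leaves 2 values against 2, 0.0146% of all genes and 0 of the genes of the set were called (limma, 9 of the set and 12.5% of all genes at an unadjusted p under 0.05). In the 4 libraries in which label and column name agree, 0.0146% of all genes and again 0 of the set were called (limma, 9 of the set and 12.3% of all genes at an unadjusted p under 0.05), and voom on the recovered reads called 2.3% of all genes and 1 of the set, SESN2 (adjusted p = 0.0381). The log2 differences in these 4 libraries were 0.66 for SESN2 (adjusted p = 0.155), 0.39 for STC2 (0.406), -0.55 for PSAT1 (0.199) and -0.41 for SLC38A2 (0.370). They were of the same sign and similar size as in the 6 libraries. Grouped by record, 0% of all genes and 0 of the set were called (limma, 191 genes or 1.39% and 0 of the set at an unadjusted p under 0.05, and 0 with voom), PRPF19 included, whose log2 difference shrank to -0.74. With voom on all 6 libraries by column name, 7 genes of the set were called, against 10.2% of all genes. These were the 4 named above together with SLC1A4, TRIB3 and YARS1.

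**Figure D4:**
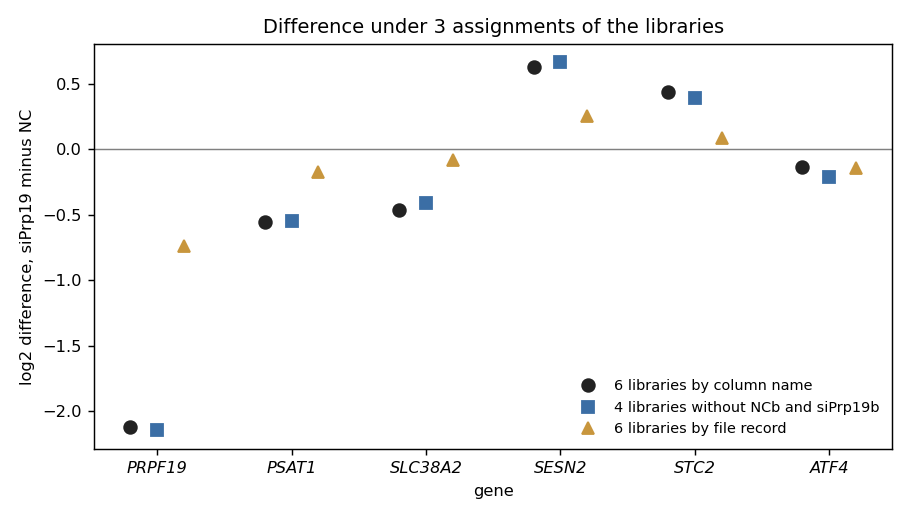
Log2 difference, siPrp19 minus NC, of PRPF19, the 4 called genes and ATF4 under 3 assignments of the libraries, shown as black circles (6 libraries by column name), blue squares (4 libraries without NCb and siPrp19b) and yellow triangles (6 libraries by file record). Circles and squares lie close together, and the triangles of the called genes lie nearer to 0.

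The genes around the set were examined in the same fit. Of 16 genes of the eIF2 step, 2 fell (12.5%, against 5.37% of all genes tested), and the median log2 difference was -0.06. EIF2S1, the eIF2 subunit that is phosphorylated, fell from 30.7 ± 1.62 to 21.6 ± 0.515 FPKM (log2 difference -0.49, adjusted p = 0.00978 with limma). IMPACT, an inhibitor of GCN2 activation, fell from 11.7 ± 0.516 to 8.97 ± 0.488 FPKM (-0.35, adjusted p = 0.0292). Of the 4 eIF2 kinases, EIF2AK1 to EIF2AK4, 0 passed (limma), with log2 differences between -0.13 and 0.04, and the phosphatase subunits PPP1R15A and PPP1R15B, themselves part of the response, were at -0.14 and -0.03.

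Of 22 further ATF4 targets, 21 were tested and 1 rose (4.76%, against 2.57% of all genes tested), with a median of 0.02. This was RIT1, a small GTPase, with 13.3 ± 0.670 FPKM in NC and 17.4 ± 1.49 FPKM in siPrp19 (log2 difference 0.37, adjusted p = 0.0408 with limma). Without overlap, 4 of the 21 were higher and 3 lower in siPrp19, against 13.2% and 18.1% of all genes. PCK2, among the higher, had the largest log2 difference of the list, 0.49, and missed the threshold (adjusted p = 0.0574 with limma). The 3 lower were CEBPD, EIF4EBP1 and JDP2, at -0.36, -0.38 and -0.40. Of 21 further genes of serine and folate metabolism, 15 were tested and 2 fell (13.3%, against 5.37% of all genes tested), with a median of -0.10. TYMS, thymidylate synthase, which uses one-carbon units to make dTMP, fell from 17.6 ± 0.504 to 7.65 ± 0.580 FPKM (log2 difference -1.10, adjusted p = 0.00182). MAT2B, the regulatory subunit of S-adenosylmethionine synthase, fell from 10.4 ± 0.556 to 4.92 ± 0.0428 FPKM (-0.94, adjusted p = 0.00182). Both log2 differences were larger in size than that of any of the 35 tested genes of the set.

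Among 14 tested further amino acid transporters (limma, 1 at an unadjusted p under 0.05, 0 with voom), 11 other cytosolic synthetases and scaffold proteins of the synthetase complex (1 and 0) and 16 mitochondrial synthetases (4 and 0), none passed. Their medians were 0.01, 0.02 and 0.03. Over all genes tested, 23.6% had an unadjusted p under 0.05 with limma and 10.2% were called with voom.

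**Figure D5:**
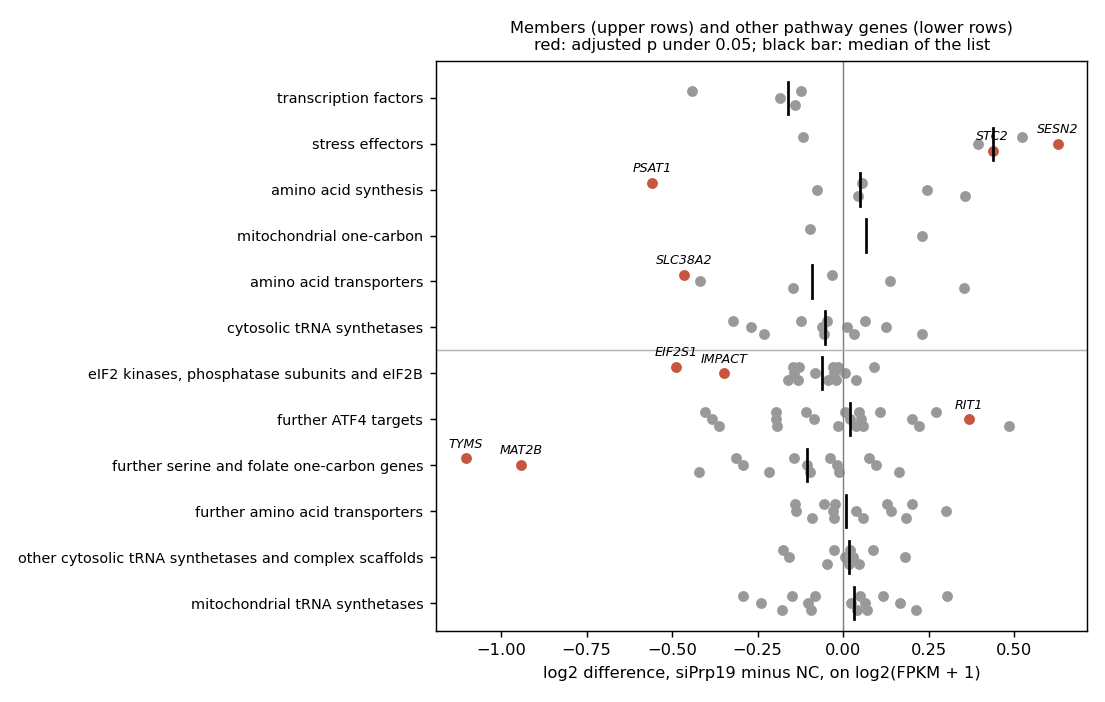
Log2 difference, siPrp19 minus NC, on log2(FPKM + 1) for every tested gene of the 6 groups of the set (above the grey line) and of 6 further pathway lists (below it), with red points for adjusted p under 0.05 and black bars for the median of each list. The stress effectors have their median at 0.44, and the medians of the other lists lie between -0.16 and 0.07.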

How the data were processed

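RNA-seq libraries of SK-N-AS cells were made by the authors with the NEBNext Ultra RNA kit, which does not mark strand. Per the submitters' processing notes, HISAT2 2.0.5, featureCounts 1.5.0-p3 and hg38 were used. The authors deposited 1 FPKM column per library for 58735 Ensembl genes, all of which are in GENCODE 29 (coordinates on GRCh38). All FPKM values were whole multiples of 1 read per exon length (100%, tolerance 0.1 read), from which reads were recovered. All SD values are over 3 libraries per group.

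Each column went to the sample whose description is the column name. The paper calls the replicates biological, but the labels do not say that libraries came from separate cultures, so p-values measure the spread between these libraries. Genes with a mean of at least 1 FPKM were compared with limma 3.58.1 (R 4.3.3, mean-variance trend) on log2(FPKM + 1), with Benjamini-Hochberg adjustment and a threshold of 0.05. The study tested its counts with a count model, and voom on recovered reads was an alternative here. A two-sided exact permutation test cannot go below 0.1 with 3 against 3 and so calls no single gene. The genes and lists were chosen with earlier results of these data known. All 39 genes are named; values per library are given for PRPF19, ATF4, DDIT3, ASNS and every called gene, and for others where libraries stood apart, which was decided after seeing the values. Alternatives were a pseudocount of 0.1, no filter, quantile normalization, an equal FPKM sum, no trend, voom, the replicate number as a block, leaving out each library and averaging close libraries; leave-one-out and block fits of the 4 libraries were added after the data were seen. Scripts were tested on simulated data. Sequences come from RefSeq (GRCh38.p14), in which 8 of the genes had no promoter: PSPH, LARS1, SLC7A11, YARS1, SHMT2, NUPR1, ALDH1L2 and PYCR1. Python 3.11.15, numpy 2.4.6, pandas 2.3.3 and matplotlib 3.10.9 were used.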

Additional observations from a re-analysis of the deposited data

How the results depend on the processing

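By column name, 1089 genes were called, 32.4% of them higher in siPrp19. Quantile normalization called 1087, 501 higher and 586 lower (46.1% higher). The count was 512 with no filter, 679 with an equal FPKM sum, 2 with close libraries averaged and 253 to 1354 with 1 library left out, and it was lowest without siPrp19c (253), NCa (264), siPrp19b (270) and NCb (335). The corresponding counts in the gene set, against 4, were 2, 2, 0 and 0 to 6, and 7 with voom. In the 4 libraries, the 2 calls became 0 with no filter, 316 with voom (82 higher, 234 lower), 0 with the replicate block and 0 to 70 with 1 library left out (70 without siPrp19c), and the set's 0 became 1 with voom. By record, every alternative called 0 genes with limma or voom. For the replicate block in 6 libraries, deviations of same-numbered libraries correlated at 0.13 (a), -0.05 (b) and 0.20 (c), and NCb correlated best with siPrp19a. Because each group holds a close pair, these correlations cannot decide whether the numbers are pairs. The main fit did not take the numbers as pairs. The block called 928 genes and 4 of the set, with TRIB3 in place of STC2.

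Over 36 genes and 540 alternative values, 476 kept sign and side of the threshold, 27 lost and 14 gained a call, and 23 changed sign, none of the latter in a called gene. The log2 differences that changed sign were, after quantile normalization, 0.0733 for AARS1, 0.00165 for ATF4, 0.0262 for DDIT4, 0.0533 for GARS1, 0.0667 for SARS1, 0.0157 for SHMT2 and 0.109 for SLC1A5 (0.00857 with an equal FPKM sum). With close libraries averaged they were -0.00175 for CARS1 and -0.0239 for PYCR1, and in the 4 libraries -0.0187 and -0.0169. With 1 library left out, the ranges were -0.0199 to 0.0844 for CARS1, -0.420 to 0.0307 for DDIT3, -0.289 to 0.182 for DDIT4, -0.131 to 0.0126 for PHGDH, -0.000232 to 0.123 for PYCR1, -0.0930 to 0.0265 for SARS1, -0.0850 to 0.0489 for SLC1A5 and -0.0416 to 0.0443 for WARS1. The cause was not tested. ASNS, NUPR1, VLDLR and ALDH1L2 were under the filter of 1 FPKM and had at most 60 reads in any library, and 3 libraries per group with a close pair in each limit every p-value.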
